A study of Mustela putorius furo with 8 samples.

Results

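Cultures of ferret pancreatic ductal epithelium (PDE) in which CFTR had been knocked out (CF, labelled CFKO) were set against wild-type (WT) cultures after 7 days at an air-liquid interface. Every retained cell of the 2 day 7 libraries was taken, 1607 CF cells and 4634 WT cells, which is 6241 of the 32945 cells (18.9%) of a series that also sampled day 2, 5 and 9. Both genotypes came from newborn ferrets 1 to 3 days old, and the duct cells had been passaged 10 times in PneumaCult medium before they were polarized on coated permeable supports. Cells of several donors were pooled for 1 library of each genotype, and the files do not tie cells to animals. Genotype, donor and library therefore cannot be told apart, no value has a replicate error and no test between genotypes was possible. Intervals given below are 95% intervals for counting error only, exact Poisson or Clopper-Pearson for a single value and exact conditional binomial for a ratio of UMIs (unique molecular identifiers, 1 for each captured transcript).

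Pancreatic ducts carry enzymes from the acini to the gut and add a bicarbonate-rich fluid, for which the anion channel CFTR is needed. Centroacinar cells sit where the smallest ducts meet the acini and are often described as able to act as progenitors. In cystic fibrosis the ducts become plugged and the exocrine pancreas is replaced by scar and fat.

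CFTR itself was counted in both libraries, with 386 UMIs (11.1 counts per 1e6 UMIs, CPM) in CF and 1315 UMIs (15.9 CPM) in WT. The study describes homozygous knockout ferrets as making no CFTR mRNA, so this level does not match the CF label as described, and why was not tested. UMIs counted per gene do not show whether a transcript was intact, so they do not decide the label. Below, CF and WT mean the library labelled CFKO and the library labelled WT, and every direction rests on those labels. At day 7 WT exceeded CF 1.43-fold (1.27 to 1.6) for CFTR, which is -0.48 as CF minus WT on the log2(CPM + 1) scale used for every difference below. At day 2, 5 and 9 CFTR was at -1.11, -0.89 and -1.30. Its gene model (74378912 to 74547852 in ASM1176430v1.1, protein coding, chromosome not named in the table used) overlaps the positions of LOC101672280. The widest gap by class name was in cells named centroacinar, with 6.17 CPM in CF and 24.8 CPM in WT, while cells named centroacinar progenitor had 22.5 and 19.7 CPM and cells named ductal 11.7 and 13.1 CPM. Against WT cells of the clusters with little SOX2, described further on, the CFTR difference turned to 0.22. PDX1, a transcription factor of pancreas formation, was known to be higher in the CF than in the WT donors when they were taken for pooling. Its difference goes with the labels but is not independent of that choice. PDX1 had 175 UMIs in CF (5.04 CPM) and 1 UMI in WT, 418-fold apart (74.0 to 16602). The CF UMIs of PDX1 came from 151 cells, and no cell held more than 4 of them.

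The 2 libraries differed in depth and in cell quality. The CF cells held 34735952 UMIs and the WT cells 82961927, with a median of 23427 and 15899 UMIs per cell and 5.71% and 10.7% mitochondrial UMIs. In CF, 411 cells (25.6%) held under 3000 UMIs against 73 (1.58%) in WT, but those CF cells gave only 1.44% of the CF UMIs. Most of them were in CF clusters 13 (267 cells) and 21 (136 cells), with medians of 990 and 995 UMIs and 0.654% and 0.440% mitochondrial UMIs. Only 2 cell barcodes were shared between both day 7 libraries.

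By the deposited class names, most CF cells were centroacinar and most WT cells ductal. Of the CF cells 68.2% (65.9 to 70.5) were named centroacinar, 20.6% (18.6 to 22.7) centroacinar progenitor and 11% (9.47 to 12.6) ductal. The WT cells were 16.9% (15.8 to 18.0) centroacinar, 30.9% (29.5 to 32.2) centroacinar progenitor and 50.7% (49.3 to 52.2) ductal. Proliferating ductal was the name of 58 WT cells, 1.25%, and of 0 of 1607 CF cells. Names were given to whole clusters within each genotype, so 0 cells under a name does not show that CF had no such cells.

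**Figure D1:**
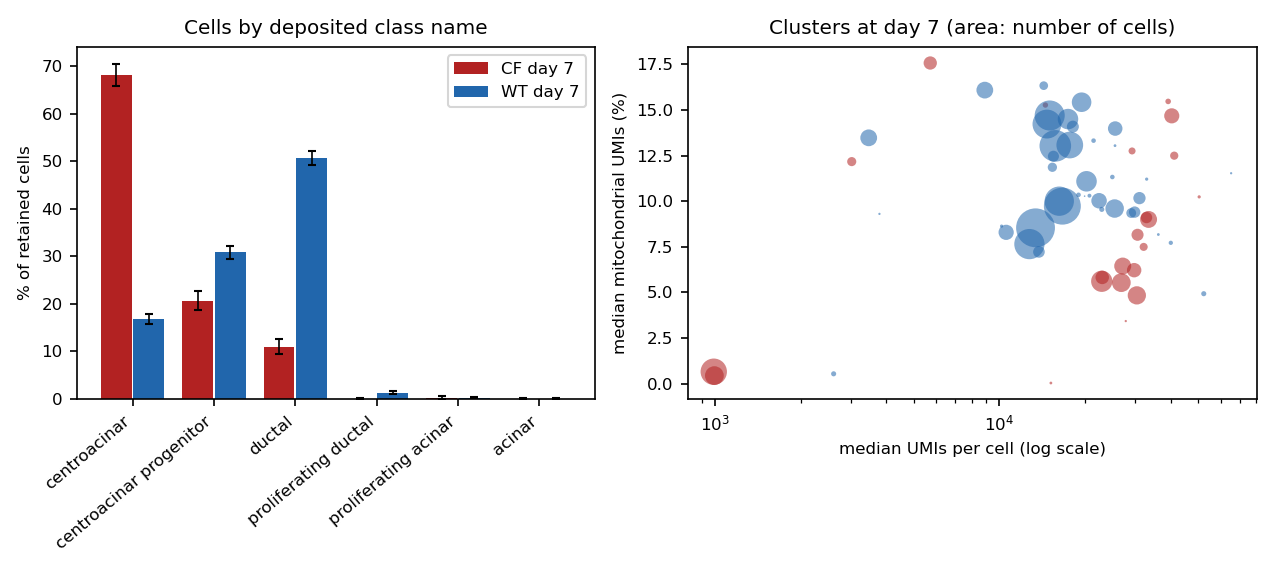
Left, share of retained cells under each deposited class name at day 7 (bars, with 95% Clopper-Pearson intervals for counting error). Right, each cluster by median UMIs per cell (log scale) and median mitochondrial UMIs, CF in red and WT in blue; the large CF points at the lower left are clusters 13 and 21, near 1000 UMIs and under 1% mitochondrial UMIs.

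The authors had clustered and named WT and CF cells separately, and the names were checked against their markers in each library. The study picked those markers on these same libraries, so a match is no independent support for a name. For the progenitor name, 11 of 11 detected markers, among them MUC1, MUC16, TSPAN8 and KLF4, were higher in the named cells than in the rest of the library in CF and again in WT. For the ductal name, 6 of 6 markers (ADIRF, CAPG, S100A10, KRT5, KRT15 and KRT19) were higher in the named cells in WT and 0 of 6 in CF. That CF count is over all 176 cells of the name. Only 88 of them are compared within the class below, and the check was not repeated on those. For the centroacinar name, 3 of 5 were higher in WT (WSB1, PROM1 and S100A6) and 1 of 5 in CF (KRT7). Cells under the names ductal and centroacinar are therefore compared below as cells of a given name, not as a cell type that these markers show. Of the CF cells 36.8% were in 5 clusters whose leading genes or depth went against their name, and of the WT cells 14%.

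Across 13818 genes with at least 30 UMIs over both libraries, 712 (5.15%) were at least 2-fold higher in CF and 470 (3.4%) at least 2-fold lower. The median gene differed by 0.12, and 33 genes were over 10-fold higher and 53 over 10-fold lower in CF. With normalization factors (TMM), which shift the median to -0.05, the counts were 493 higher and 606 lower, so the split between higher and lower genes depended on the scaling. The 3 classes with at least 50 cells in each library were also weighted alike in both libraries, each by its mean share of cells over the 2. That setting leaves out cells named proliferating or acinar and takes in clusters whose leading genes or depth went against their name. This gave 703 higher and 452 lower, with 607 of the 712 and 402 of the 470 genes still called.

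**Figure D2:**
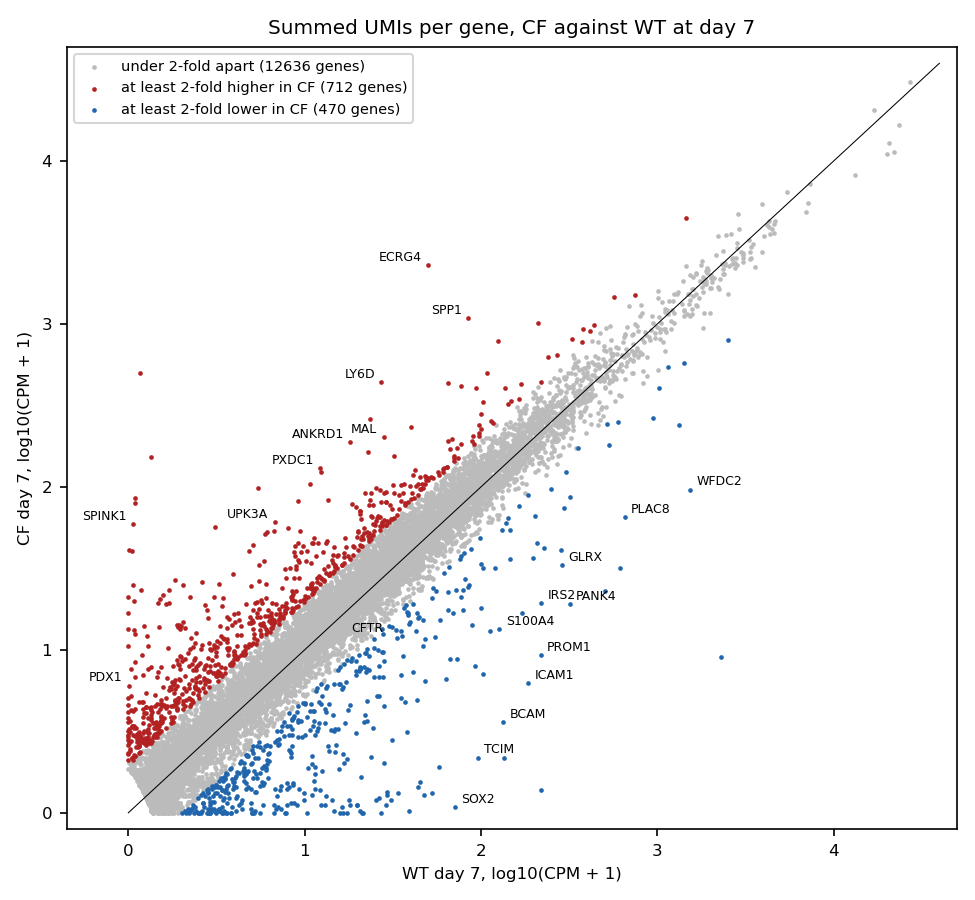
Each point is 1 gene, by its level in WT (x axis) and CF (y axis) at day 7 as log10(CPM + 1), with the line of equality. Labels mark most of the genes named first in the text; ECRG4, SPP1 and LY6D lie far above the line and WFDC2, PLAC8, ICAM1 and SOX2 far below it.

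ECRG4, a precursor of secreted peptides, had 2302 CPM in CF and 49.1 CPM in WT, 46.9-fold (45.4 to 48.4). After cells of at least 3000 UMIs had been thinned to that number, which left out 411 CF and 73 WT cells, 67.6% (64.9 to 70.3) of CF cells and 3.27% (2.77 to 3.82) of WT cells held an ECRG4 UMI, against 86.7% and 6.41% of all 1607 and 4634 cells without thinning. The lowest CF cluster had it in 8.59% of cells, the lowest WT cluster in none of 88. Its level ran from 36.2 CPM in CF cluster 11 to 6839 CPM in CF cluster 18. Free RNA in droplets was not measured, so a share or level as low as that of CF cluster 11 is not read as expression.

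SPINK1, a trypsin inhibitor of the exocrine pancreas, had 2029 UMIs (58.4 CPM) in CF and 5 UMIs in WT, 969-fold (415 to 2988). Its CF UMIs were few-celled: 1 cell held 33.4% of them and 3 cells 63.5%, and without the top cell the difference was 5.23 in place of 5.81. LY6D, a lipid-anchored surface protein, was at 437 and 26.2 CPM, 16.7-fold (15.9 to 17.4), and reached 1555 CPM in CF cluster 0. MAL, a raft protein of apical transport, was at 201 and 27.1 CPM, and the urothelial plaque protein UPK3A at 59.7 and 5.77 CPM. These were not the same CF cells: MAL was highest in CF cluster 18 (838 CPM), where LY6D had 6.92 CPM.

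ASS1, which makes the precursor of arginine, had 55.7 CPM in CF and 2.11 CPM in WT, 26.4-fold (22.6 to 31.0). Lactoferrin (LTF), an iron-binding defence protein, had 122 and 11.5 CPM, 10.7-fold (9.95 to 11.5). TFPI, an inhibitor of the start of coagulation, had 50.5 and 4.98 CPM, and PXDC1 130 and 11.3 CPM. The aggrecan-cleaving protease ADAMTS5 had 51.9 and 5.12 CPM. Each of these genes, with SPP1 and ANKRD1 described further on, was also at least 2-fold higher in CF when cells under 3000 UMIs were left out and when classes were weighted alike.

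On the WT side SOX2, a transcription factor of the foregut and its stratified linings, had 69.8 CPM (5793 UMIs) in WT and 3 UMIs in CF, 809-fold apart (277 to 3922). After thinning, 18.8% (17.7 to 20.0) of WT cells and 0.167% (0.0203 to 0.603) of CF cells held a SOX2 UMI, against 51.6% and 0.187% without thinning. Its gene model overlaps the positions of LOC123394417. No CF cluster of at least 50 cells reached 1 CPM, while WT clusters ran from 0.598 to 168 CPM. Of the WT cells, 1276 (27.5%) were in clusters with at most 10 CPM of SOX2 over the 4 days, called SOX2-low here; they were defined by SOX2, so its own level in them is no result.

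Cell-surface genes followed. BCAM, a laminin receptor, had 2.59 CPM in CF and 133 CPM in WT, 51.2-fold lower in CF (41.6 to 63.7). ICAM1, the ligand by which leukocytes adhere, had 5.24 and 184 CPM, 35.2-fold (30.4 to 41.0), and 1.25% of thinned CF cells and 40.6% of thinned WT cells held a UMI of it (8.21% and 79.0% unthinned). PROM1, the CD133 antigen and a marker on the centroacinar list, had 8.32 and 217 CPM. The membrane mucin MUC13 had 12 and 112 CPM.

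WFDC2, a secreted protease inhibitor of mucosal epithelia, had 95.3 CPM in CF and 1532 CPM in WT, 16.1-fold (15.5 to 16.6). IRS2, which carries the signal of the insulin receptor, had 18.4 and 218 CPM, 11.9-fold (11 to 12.9). TCIM had 1.18 and 94.7 CPM, PANK4 18.0 and 318 CPM and PLAC8 64.0 and 653 CPM. The thiol reductase GLRX had 32.0 and 288 CPM and the calcium-binding S100A4 12.4 and 126 CPM. Each of these was at least 8-fold lower in CF.

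The choice of WT cells mattered for several of these genes. Against the 1276 SOX2-low WT cells alone, 915 genes (7.07%) were at least 2-fold higher in CF and 359 (2.77%) at least 2-fold lower. Of the 712 genes higher against all WT cells, 464 were still called and 8 had the opposite sign; of the 470 lower genes, 158 were still called and 104 had the opposite sign. WFDC2 turned to 1.31, MUC13 to 1.56, S100A4 to 0.51, GLRX to 0.49 and PANK4 to 0.021, so these were not lower in CF than in SOX2-low WT cells. Class names differed too. In clusters kept under their name, 50.9% of WT ductal, 12.8% of centroacinar and 0% of progenitor cells were SOX2-low. WT progenitor cells, which this choice leaves out, had more of each of these genes than WT ductal cells (WFDC2 4719 and 72.5 CPM, MUC13 273 and 3.64 CPM). Class name and SOX2 level were not told apart here. PROM1 shrank to -0.54, under 2-fold. TCIM (-1.08), PLAC8 (-1.28) and IRS2 (-1.27) were still called but far closer than their -5.46, -3.33 and -3.50 against all WT cells, and ICAM1 was at -2.79 and BCAM at -5.44. On the CF side ANKRD1 (5.84) and SPP1 (5.70) were then further apart than against all WT cells, and MAL (1.47) and LY6D (2.63) were closer.

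Among genes known only by a locus number, LOC123386996 had 17357 UMIs in CF (500 CPM) and 14 in WT, LOC101672794 had 5261 and 29, and LOC123394028 had 2917 and 7. Of these, LOC123386996 was in 1247 of 1607 CF cells. In the other direction LOC106003392 had 281 UMIs in CF (8.09 CPM) and 189591 in WT (2285 CPM), the non-coding LOC106005313 had 13 and 18165, and LOC101685649 had 41 and 11185. No function is given for them.

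In CPM itself the 10 largest moves each way included ECRG4, SPP1, WFDC2 and LOC106003392, given with their values elsewhere, and several abundant transcripts. The mitochondrial transcripts ATP6, COX3, COX2, CYTB and ND4 were lower in CF, ATP6 at 11326 against 21921 CPM and COX3 at 11100 against 20151 CPM, while COX1 was higher, at 20645 against 17049 CPM (0.28, but -0.053 as the mean CPM of each cell). None of the 13 mitochondrial genes was 2-fold apart, though with TMM factors ATP6 (-1.16) and COX3 (-1.07) were, and as the mean CPM of each cell ATP6 (-1.26), COX3 (-1.14) and, at the 2-fold line, ND1. The 13 summed to 81230 CPM in CF and 112945 CPM in WT. Clusterin (CLU), an extracellular chaperone, had 4450 and 1459 CPM, 3.05-fold higher in CF (3.03 to 3.07). The duct keratin KRT7 had 3471 and 2216 CPM, S100A6 30499 and 27227 CPM (0.16, and -0.04 with TMM factors), TMSB10 3588 and 2633 CPM and RPS29 3529 and 2467 CPM. For TMSB10 the difference was 0.45, but 0.03 without CF cluster 11, described further on. IER3, an early response gene, had 797 and 2502 CPM, and FTH1, the heavy chain of ferritin, 5555 and 7153 CPM. LOC101675078 (4717 and 2853 CPM) and LOC101694231 (6453 and 5455 CPM) were higher in CF, and LOC101685363 (12892 and 20678 CPM) was lower.

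Of 16 detected collagen genes 12 were at least 2-fold higher in CF and 0 lower, with a median of 1.53, against 5.15% and 3.4% of all genes and a median of 0.12, the shares that also stand beside every other list over all cells. COL18A1, a basement membrane collagen, had 401 and 135 CPM, 2.97-fold (2.89 to 3.04). COL12A1 had 34.3 and 4.86 CPM, and COL7A1, of the anchoring fibrils of the skin, 8.12 and 0.964 CPM. The network collagens of the basement membrane were uneven, with COL4A3 at 2.16, COL4A1 at 1.65 and COL4A2 at 0.26.

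Of 20 matricellular and matrix glycoproteins 12 were higher and 1 lower, with a median of 1.36. Osteopontin (SPP1) had 1082 CPM in CF and 83.5 CPM in WT, 13-fold (12.6 to 13.3). SPARC, a collagen-binding protein, had 787 and 124 CPM, fibronectin (FN1) 404 and 93.1 CPM, and connective tissue growth factor (CCN2) 1464 and 566 CPM. The proteoglycan VCAN had 18.1 and 0.639 CPM and POSTN 5.82 and 0.446 CPM. TGFBI, also a matrix adhesion protein, went the other way, with 35.7 and 196 CPM, but it was 1.79 higher in CF against SOX2-low WT cells.

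Among the 18 laminins and integrins 8 were higher and 1 lower (4 and 1 with TMM factors). The laminin chain LAMB1 had 82.1 and 22.5 CPM and LAMA5 64.2 and 23.2 CPM, while LAMA4 was lower in CF, at 8.21 and 22.2 CPM, and 2.07 higher against SOX2-low WT cells. The integrin chain ITGB1 had 979 and 439 CPM (1.16, and 0.95 with TMM factors), ITGA2 90.5 and 35.1 CPM and ITGB5 52.5 and 19.0 CPM. ITGB5 was at 0.88 against SOX2-low WT cells, where 13 members were higher and 0 lower. Of 14 matrix proteases and inhibitors 2 were higher and 2 lower, beside 5.15% and 3.4% of all genes, with a median of 0.03. ADAMTS1 had 81.6 and 12.6 CPM and TIMP2 13.7 and 3.99 CPM, whereas the membrane protease MMP14 had 4 UMIs in CF and 2307 in WT, and the plasminogen activator PLAU 53.8 and 130 CPM.

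Contractile and mesenchymal genes were higher in 8 of 23 cases and lower in 1, with a median of 0.46. ANKRD1, a target of the YAP pathway, had 188 and 17.2 CPM, 11-fold (10.4 to 11.6). The intermediate filament vimentin (VIM) had 232 and 39.0 CPM, 5.96-fold (5.72 to 6.21), and the actin-bundling TAGLN 500 and 107 CPM. S100A4, often used as a fibroblast marker, was the lower member.

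**Figure D3:**
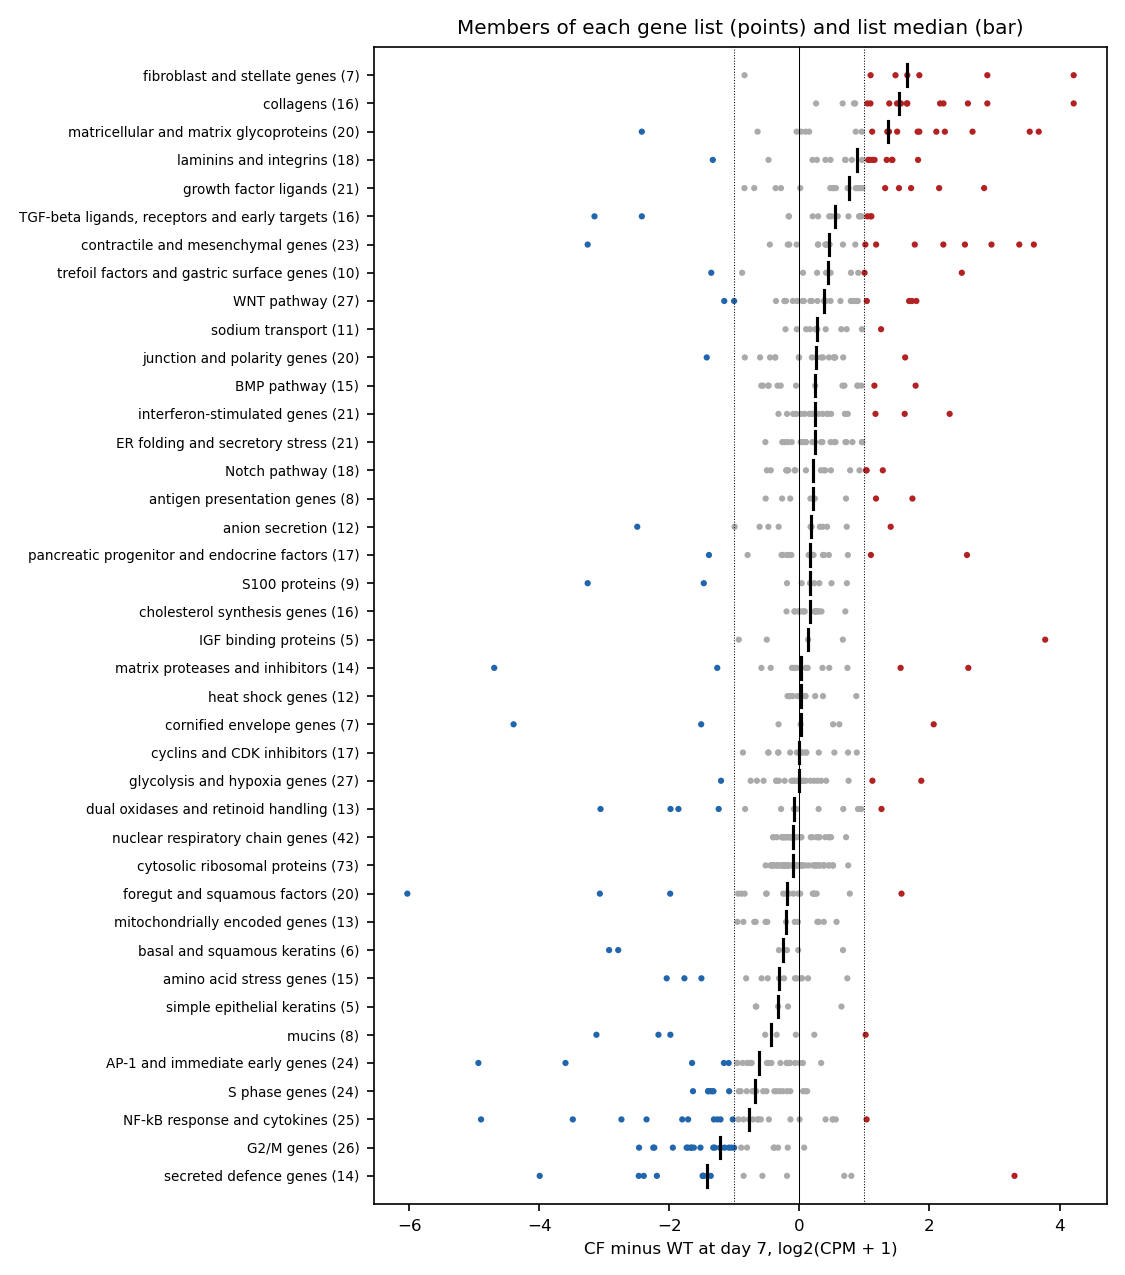
Difference CF minus WT in log2(CPM + 1) at day 7 for each detected member (points) of most lists with at least 5 detected genes, whose number stands after each name; black bars are list medians, dotted lines mark 2-fold and colours genes past it (red higher, blue lower in CF). Collagens lie to the right, with 12 of 16 past 2-fold, and G2/M genes to the left, with 19 of 26.

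Much of the matrix signal came from 1 group of CF cells. CF cluster 11, with 128 cells named centroacinar, held 75.3% of the TAGLN UMIs of the CF library, 74.8% of FN1, 74.1% of ANKRD1, 60.7% of SPP1 and 46.0% of SPARC. Its cells also carried epithelial transcripts, with KRT7 at 5179, KRT19 at 3341 and EPCAM at 181 CPM. Without cluster 11, 6 collagen genes, 8 matricellular genes, 4 laminins and integrins and 2 contractile genes were still at least 2-fold higher, and 3 contractile genes were lower. FN1 was then at 0.30, TAGLN at 0.38, COL4A1 at 0.08 and ITGB1 at 0.71, while SPP1 was at 2.51 in place of 3.68, ANKRD1 at 1.63 in place of 3.38 and ADAMTS5 at 2.23 in place of 3.11. In WT the same genes peaked in cluster 2, with 52 cells named ductal, at 1545 CPM of TAGLN, 1353 CPM of FN1 and 627 CPM of SPP1.

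Within cluster 11 a single cell stood apart. It held 57991 UMIs, among them 766 of ACTA2, 343 of COL1A1, 240 of TPM2, 156 of COL1A2, 116 of POSTN, 90 of THY1 and 75 of COL3A1, but 0 of KRT7, 0 of KRT18, 0 of KRT5, 0 of CDH1, 1 of KRT19 and 1 of EPCAM. This 1 cell carried all CF UMIs of the fibroblast and stellate markers THY1 and COL3A1, 92.2% of ACTA2, 93.4% of TPM2, 67.2% of COL1A2 and 52.1% of COL1A1. Of 7 detected fibroblast and stellate genes, 6 were at least 2-fold higher in CF, with a median of 1.66. Without that cell 3 were, ACTA2 dropped from 3.60 to 0.49 and TPM2 from 2.95 to 0.46, and 12 of the 712 genes were no longer called. COL1A1 was then at 3.23, but cluster 11 held 92.9% of its CF UMIs, and without the whole cluster it was at 1.24. After thinning 1.84% of CF cells held a COL1A1 UMI. Without the single cell 10 of 16 collagens, 12 of 20 matricellular genes and 6 of 23 contractile genes were still called. The list's summed level in CF was 131 CPM and in WT 49.2 CPM, and DCN and LUM had 1 UMI in each library. Their part in the matrix differences, beyond leaving out that cell, was not tested.

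Secreted defence genes had a median of -1.42, with 8 of 14 at least 2-fold lower in CF and 1 higher. Apart from WFDC2, the antibody transporter PIGR had 1.58 and 12.6 CPM, the secretoglobin SCGB1A1 0.979 and 9.96 CPM and BPIFB1 2.25 and 13.8 CPM. LTF was the higher member. Against SOX2-low WT cells the median was 0.49 and 1 member was lower, with PIGR at 0.49 and SCGB1A1 at 0.25.

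Of 8 mucins 3 were lower and 1 higher, beside 3.4% and 5.15% of all genes. MUC4 had 16.6 CPM in CF and 77.8 CPM in WT and the gel-forming MUC5B 8.18 and 35.3 CPM, while MUC5AC had 47.0 and 22.7 CPM, 2.07-fold higher (1.94 to 2.21), though its log2 difference of 1.02 was 0.99 without WT cluster 27 and 0.82 with TMM factors. No mucin was called lower against SOX2-low WT cells, with MUC4 at 1.91 and MUC5B at 0.42. The abundant MUC1 was at 502 and 724 CPM. Of 10 trefoil factors and gastric surface genes 2 were higher and 1 lower: TFF1 had 52.3 and 8.44 CPM and PSCA 183 and 90.8 CPM (1.00, and 0.98 without WT cluster 27), but the gastric protease CTSE 3.20 and 9.73 CPM. CTSE (0.47) and PSCA (0.96) were not called against SOX2-low WT cells. Of 13 dual oxidases and retinoid genes 4 were lower and 1 higher, with the oxidase DUOX2 at 5.82 and 23.7 CPM, its maturation factor DUOXA2 at 7.83 and 72.5 CPM and the retinoic acid carrier CRABP2 at 644 and 268 CPM. DHRS9 had 15.4 and 37.7 CPM and ALDH1A3 had 1 UMI in CF and 254 in WT. Only 2 of these were lower against SOX2-low WT cells, DUOX2 (-1.20) and DUOXA2 (-1.59), while DHRS9 (-0.80), ALDH1A3 (-0.19) and CRABP2 (0.93) were no longer called.

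Of 25 NF-kB response genes and cytokines 10 were at least 2-fold lower and 1 (VRK2) higher, with a median of -0.78. The neutrophil growth factor CSF3 had 63 UMIs in CF and 2527 in WT, 16.8-fold (13.1 to 21.9), the chemokine CCL20 25 and 867, and CXCL8 1 and 352. NFKBIA, the inhibitor that NF-kB itself induces, had 573 and 1426 CPM, 2.49-fold (2.45 to 2.53). Against SOX2-low WT cells 6 were lower and 4 higher, and the median was -0.04, while NFKBIA was at -1.74 and CXCL8 at -0.10.

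Of 24 immediate early genes 5 were lower and 0 higher, with a median of -0.62, beside 3.4% and 5.15% of all genes. With TMM factors 9 were lower. IER3 was 3.14-fold lower (3.10 to 3.18), the phosphatase DUSP2 had 15 UMIs in CF and 3549 in WT, the nuclear receptor NR4A1 had 2.13 and 36.8 CPM and EGR2 9.16 and 21.7 CPM. With SOX2-low WT cells 6 were lower, but NR4A1 (-0.83) and EGR2 (-0.56) were not among them. Of 15 amino acid stress genes 3 were lower: DDIT3, which drives stress-induced death, at 15.9 and 68.6 CPM, NUPR1 at 22.3 and 78.3 CPM and the cystine carrier SLC7A11 at 4.72 and 15.2 CPM. Of the 3 DDIT3 alone was lower against SOX2-low WT cells, at -2.47, with NUPR1 at -0.67 and SLC7A11 at 0.22. None of 12 heat shock genes and none of 21 genes of ER folding was 2-fold apart. Of 21 interferon-stimulated genes 3 were higher, beside 5.15% of all genes, and 0 lower, MX2 at 44.4 and 8.15 CPM, ISG20 at 62.8 and 19.8 CPM and BST2 at 1.93 and 0.301 CPM. Only MX2 was higher against SOX2-low WT cells, at 2.93, while ISG20 was at 0.52 and BST2 at 0.67.

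Of 26 G2/M genes 19 were at least 2-fold lower and 0 higher, with a median of -1.21, and of 24 S phase genes 7 were lower and 0 higher, beside 3.4% of all genes lower. CENPF, a kinetochore protein, had 2.97 and 20.9 CPM, TOP2A 2.27 and 14.5 CPM, UBE2C 3.83 and 21.6 CPM and AURKB 0.518 and 4.85 CPM. Among the S phase genes TK1 had 0.633 and 4.07 CPM, RRM2 6.79 and 19.6 CPM, TYMS 0.806 and 3.77 CPM and MCM4 1.96 and 6.61 CPM. WT cluster 27, the 58 cells named proliferating ductal, held 68.7% of the CENPF UMIs of the WT library. Without it 3 G2/M genes were lower and the median was -0.21, with CENPF at -0.95 and UBE2C at -0.98, and 7 S phase genes were lower. That setting keeps the cycling cells of CF: cluster 24, 4 cells named proliferating acinar, held 88 of the 103 CENPF UMIs of the CF library. Without the clusters named proliferating in both libraries (4 cells in CF, and 58, 10 and 2 in WT) 9 G2/M genes were lower, with a median of -0.81, CENPF at -2.12 and UBE2C at -1.74, and 6 S phase genes were lower. With classes weighted alike 5 G2/M and 2 S phase genes were lower, but that setting also leaves out the cells named proliferating. Against SOX2-low WT cells, which include WT cluster 27, 24 G2/M and 15 S phase genes were lower, with medians of -2.36 and -1.37. None of 17 cyclins and CDK inhibitors was 2-fold apart.

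Of 21 growth factor ligands 5 were higher and 0 lower, with a median of 0.76, beside 5.15% of all genes higher. EGF had 12.7 and 0.916 CPM, 13.9-fold (10.9 to 18.0), PDGFB 42.3 and 8.78 CPM, PDGFA 197 and 67.5 CPM and GAS6 91.3 and 27.1 CPM, and the abundant PTN was at 651 and 793 CPM. PDGFA was at 0.96 against SOX2-low WT cells. Of 5 insulin-like growth factor binding proteins IGFBP2 was higher, at 20.7 and 0.579 CPM, and IGFBP3, at 947 and 1806 CPM (-0.93), was under 2-fold apart. With TMM factors 1 member of that list was lower.

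In the 4 signalling lists that follow at most 4 members were called in either direction, beside 5.15% higher and 3.4% lower among all genes, and they are given as values. Of 16 TGF-beta genes 3 were higher and 2 lower, the receptor TGFBR1 at 78.7 and 36.3 CPM and the feedback inhibitors SMAD7 at 123 and 56.4 CPM and PMEPA1 at 776 and 375 CPM, against the ligand TGFB2 at 3.92 and 42.6 CPM and TGFBI. With TMM factors TGFBR1 (0.89), SMAD7 (0.90) and PMEPA1 (0.84) were under 2-fold, and without CF cluster 11 TGFBR1 (0.97) and PMEPA1 (0.91) were. In the comparison with SOX2-low WT cells 7 were higher and 0 lower, with TGFB2 at 0.86 and TGFBI at 1.79. Of 27 WNT genes 4 were higher and 2 lower. Among the higher ones the antagonist DKK1 had 70.4 and 19.5 CPM, LEF1 3.77 and 1.33 CPM and TRIM14 3.08 and 0.229 CPM, while the ligands WNT7A (5.01 and 12.4 CPM) and WNT3A (0.317 and 1.64 CPM) were lower. LEF1, at 1.04, was at 0.58 without CF cluster 11. With SOX2-low WT cells 8 WNT genes were higher and 0 lower, with WNT7A at 0.96, WNT3A at -0.87 and LEF1 at 0.58. Of 15 BMP genes 2 were higher, the receptor BMPR2 at 155 and 69.1 CPM and SMAD9 at 10.9 and 2.44 CPM. With TMM factors SMAD9 alone was higher, and against SOX2-low WT cells it was at 0.69, with ID1 (-1.34) and ID3 (-1.03) lower. Of 18 Notch genes 3 were higher, the glycosyltransferases LFNG (60.5 and 24.3 CPM) and MFNG and the receptor NOTCH4, and HES1 was at 795 and 909 CPM. LFNG (0.70) and NOTCH4 (0.86) were under 2-fold against SOX2-low WT cells.

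Of 17 pancreatic progenitor and endocrine factors PDX1 and NR5A2 (43.3 and 19.7 CPM) were higher and FOXA3 (6 UMIs in CF and 172 in WT) lower, beside 5.15% and 3.4% of all genes. Of 20 foregut and squamous factors GATA3 was higher, at 191 and 63.6 CPM, and SOX2, the lung and thyroid factor NKX2-1 (1.01 and 15.8 CPM) and SPDEF (3.57 and 17.1 CPM) were lower. With TMM factors 6 of the 20 were lower. Against SOX2-low WT cells GATA3 was at 0.51, NKX2-1 at 0.30, SPDEF at -0.56 and NR5A2 at -0.28. The basal keratin KRT5 was at 647 and 739 CPM over all cells. By name it was at 992 and 536 CPM in centroacinar, 22.4 and 27.3 CPM in progenitor and 297 and 1220 CPM in ductal cells. KRT15 was at 4.09 and 34.1 CPM and KRT4, of stratified non-keratinizing linings, at 7.80 and 65.9 CPM. Of the desmosomal cadherins DSC3 was higher (91.4 and 21.1 CPM), and DSG3 (8.69 and 26.6 CPM) and DSC2 (7 UMIs in CF and 2012 in WT) were lower. Against SOX2-low WT cells KRT4 was at 0.53 and DSG3 at 1.93.

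In each of the next 4 lists at most 2 members were called in either direction, beside 5.15% higher and 3.4% lower among all genes, so they are given as values only. Of 12 detected genes of anion secretion SLC4A4, a bicarbonate carrier, was higher, at 4.84 and 1.21 CPM, and the potassium channel subunit KCNE3 lower, at 6.28 and 39.9 CPM, though 1.18 higher against SOX2-low WT cells. Of 11 sodium transport genes the epithelial channel subunit SCNN1G was higher, at 19.1 and 7.44 CPM. Of 20 junction genes CLDN8 (4.06 and 0.639 CPM) was higher and CLDN3 (1.30 and 5.16 CPM) lower, and of 27 glycolysis and hypoxia genes CA9 (13.8 and 3.05 CPM) and P4HA1 (212 and 96.9 CPM) were higher and ADM (8.61 and 21.1 CPM) lower. Of 8 antigen presentation genes the immunoproteasome subunits PSMB9 (9.21 and 2.06 CPM) and PSMB8 (3.25 and 0.880 CPM) were higher. Among 9 S100 genes S100A9 was lower with S100A4, at 15.0 and 43.3 CPM. Several calls of this paragraph ended against SOX2-low WT cells: SLC4A4 (1.00, just under 2-fold), SCNN1G (0.29), CLDN3 (0.35), CA9 (0.68), P4HA1 (0.41), PSMB8 (0.43) and S100A9 (-0.59). No member was 2-fold apart among 73 ribosomal proteins, 42 nuclear respiratory chain genes, 16 cholesterol synthesis genes and 5 simple epithelial keratins.

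Defining markers of endocrine, immune and endothelial cells were at or near 0 in both libraries. INS, GCG, SST and PPY had 0 UMIs in each library, and 1 of 12 endocrine genes passed the minimum (GHRL, 16 UMIs in CF and 14 in WT). PTPRC, CD3E and CSF1R had 0 UMIs, and of the 4 immune genes that passed, LYZ (19 and 247 UMIs) and CD14 (31 and 392 UMIs) were lower in CF, though at -0.45 and -0.14 against SOX2-low WT cells. CDH5, KDR and CLDN5 had 0 UMIs, and FLT1, at 247 and 78 UMIs, was the only endothelial gene that passed. Of 11 acinar genes 3 passed and none was 2-fold apart, and nearly all of their summed level was colipase (CLPS), at 60.4 and 55.2 CPM in 648 CF and 2284 WT cells. Of 10 ciliated cell genes CAPS was higher, at 46 and 13 UMIs (1.01, 0.91 without CF cluster 11 and 0.98 against SOX2-low WT cells), FOXJ1 had 0 and 1 UMI, and the tubulin TUBB4B, at 247 and 264 CPM, made up nearly all of the list's summed level. For the labelled tissue, KRT19 was at 4093 and 4621 CPM and KRT7 was listed above.

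**Figure D4:**
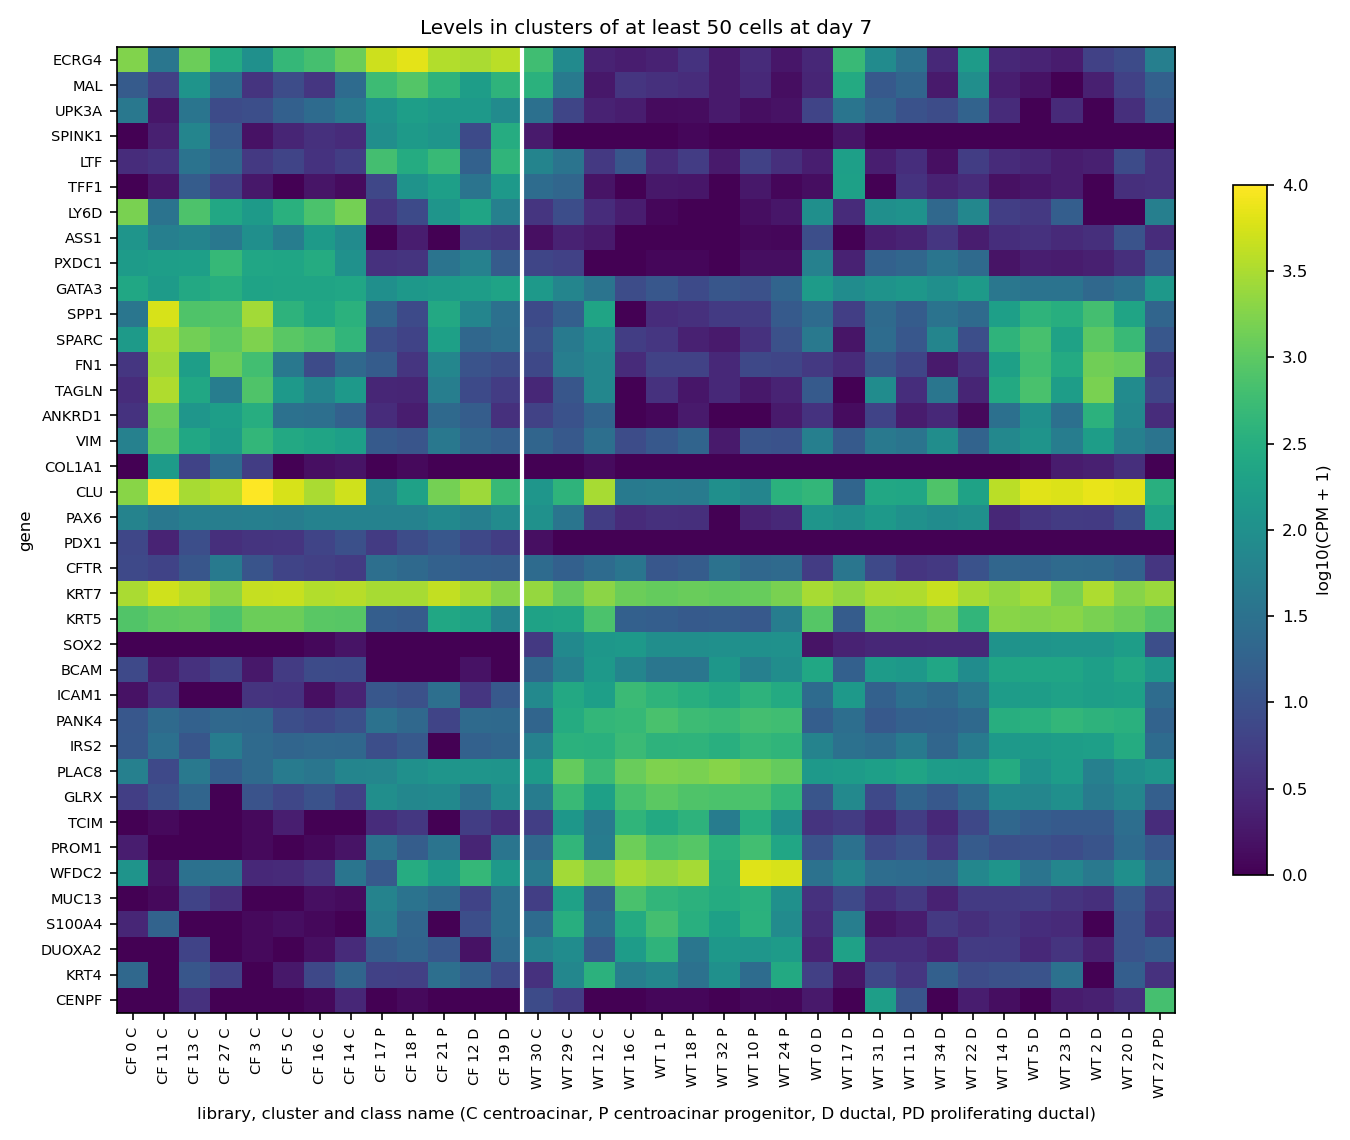
Level of selected genes as log10(CPM + 1), by colour, in each cluster of at least 50 cells at day 7, CF to the left of the white line and WT to the right, clusters ordered by class name and then by SOX2. SOX2 is dark in all 13 CF clusters; SPP1, SPARC, FN1 and TAGLN are bright in CF cluster 11 and WT cluster 2; WFDC2 is bright in WT cells named centroacinar progenitor.

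In clusters whose leading genes did not go against their name, cells named centroacinar (729 CF, 632 WT) had 1062 of 12125 genes (8.76%) at least 2-fold higher in CF and 655 (5.4%) lower. Cells named centroacinar progenitor (195 CF, 1047 WT) had 953 of 11211 (8.5%) higher and 678 (6.05%) lower. Cells named ductal (88 CF, 2232 WT) had 616 of 12362 (4.98%) higher and 1211 (9.8%) lower. With TMM factors the counts were 823 higher and 794 lower in centroacinar, 694 and 870 in progenitor and 623 and 1202 in ductal cells, so the balance turned for the progenitor name. Genes higher in all 3 classes numbered 106 and genes lower in all 3 numbered 154, of 10953 detected in each.

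Among genes higher in CF, the progenitor name gave the steepest contrasts. There ECRG4 had 5936 CPM in CF and 2.21 CPM in WT, 2686-fold (1964 to 3778), MAL 672 and 1.47 CPM and UPK3A 139 and 0.623 CPM. TFF1, a mucosal trefoil peptide, had 161 and 0.567 CPM and SPINK1 755 UMIs and 1 UMI, though 3 cells held 63.5% of the SPINK1 UMIs of the whole CF library. SOX2 (98.9 CPM in WT), BCAM (66.5 CPM) and the fatty acid oxidation enzyme ECHS1 (53.4 CPM) had 0 UMIs in the CF progenitor cells, which is at least 222-fold, 150-fold and 120-fold lower at a floor of 3 UMIs in those cells. TCIM (2.82 and 250 CPM) and PRAP1 (0.148 and 58.4 CPM) followed. None of these WT progenitor cells was in a SOX2-low cluster.

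In cells named centroacinar LY6D was at 600 CPM in CF and 6.01 CPM in WT, 99.8-fold (79.0 to 128), ASS1 at 89.6 and 0.945 CPM and PXDC1 at 194 and 3.35 CPM. ANKRD1 had 306 and 13.7 CPM there and ADAMTS5 79.8 and 3.09 CPM. Lowest were PROM1 (1.13 and 179 CPM), SOX2 (0.147 and 94.8 CPM), TCIM (0.294 and 83.9 CPM), WFDC2 (24.8 and 1555 CPM) and PRAP1 (0.392 and 81.0 CPM). PROM1, a marker on the list for this name, was thus almost absent from the CF cells that carry it.

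In cells named ductal ECRG4 had 3162 and 56.2 CPM, the uroplakins UPK1A 241 and 8.74 CPM and UPK3A 114 and 8.05 CPM, LY6D 678 and 47.3 CPM and the esterase CES1 55.1 and 2.97 CPM. BCAM had 1.06 and 187 CPM and DUSP2 0.353 and 70.6 CPM, and CDH13, a lipid-anchored cadherin at 65.3 CPM in WT, had 0 UMIs in CF, at least 61.6-fold lower. TAGLN (5.30 and 193 CPM) and CALD1 (13.4 and 441 CPM) were also among the 5 lowest. Of the WT ductal cells 50.9% were in SOX2-low clusters.

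The matrix lists are given by name, with no test of the difference between names. In cells named centroacinar 13 of 14 collagens, 14 of 19 matricellular genes and 14 of 21 contractile genes were at least 2-fold higher in CF, with medians of 2.33, 1.83 and 1.35, beside 8.76% of all genes higher there. In cells named centroacinar progenitor 1 of 5, 4 of 10 and 2 of 17 were higher and 0, 2 and 4 lower, beside 8.5% of all genes higher and 6.05% lower there. In cells named ductal 0 of 10 collagens, 2 of 17 matricellular genes and 0 of 20 contractile genes were higher and 7, 10 and 11 were lower, with medians of -1.56, -1.17 and -1.08, beside 9.8% of all genes lower there. The CF cells named centroacinar include cluster 11 with its THY1-positive cell. Cluster 11 held 13089 of their 17086 TAGLN UMIs and 10503 of their 12953 FN1 UMIs. In WT, TAGLN and FN1 peaked in cluster 2, which was named ductal. The counts by name were not repeated without these clusters. Of laminins and integrins 13 of 18 were higher and 1 lower in centroacinar cells, and 1 of 18 higher and 4 lower in ductal cells. Of the mucins 7 of 7 were lower in centroacinar cells, and 5 of 7 were higher and 1 lower in ductal cells. Of NF-kB genes 9 of 23, 9 of 22 and 9 of 23 were lower and 0, 2 and 2 higher in centroacinar, progenitor and ductal cells, beside 5.4%, 6.05% and 9.8% of all genes lower. In the same order 5, 15 and 7 of 23 immediate early genes were lower and 0, 0 and 1 higher. Pancreatic progenitor and endocrine factors were higher in 2 of 12, 7 of 13 and 0 of 14 cases and lower in 1, 1 and 2. Interferon-stimulated genes were higher in 2 of 19, 8 of 16 and 3 of 18 and lower in 1, 0 and 3, beside 8.76%, 8.5% and 4.98% of all genes higher.

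**Figure D5:**
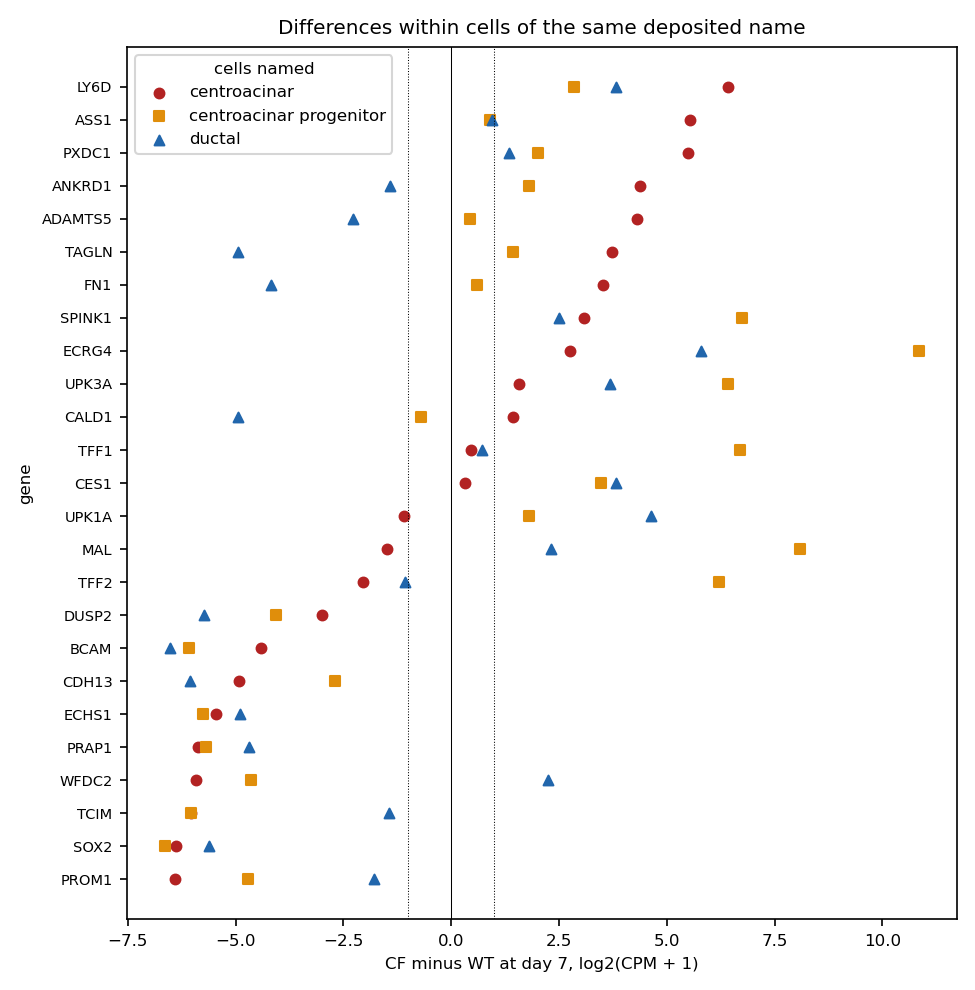
Difference CF minus WT in log2(CPM + 1) at day 7 within cells named centroacinar (circles), centroacinar progenitor (squares) and ductal (triangles), for the genes furthest apart in any of the 3. SOX2, BCAM and ECHS1 lie left of the 2-fold line in all 3, while TAGLN and FN1 lie right of it in centroacinar and left in ductal cells.

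Each other day had 1 CF and 1 WT library of its own, made from the pooled donors of each genotype. Of the 712 genes higher at day 7, 288 of 675 detected at day 2, 281 of 702 at day 5 and 415 of 711 at day 9 were at least 2-fold higher there too, where 4.09%, 2.41% and 3.67% of all genes were. Of the 470 lower genes, 306 of 464, 360 of 470 and 358 of 458 were lower there, where 4.37%, 4.62% and 3.9% of all genes were. At all 4 days 156 genes were higher and 208 lower. ECRG4 stood at 6.61, 6.43 and 4.91 at day 2, 5 and 9 and ICAM1 at -4.19, -4.97 and -5.39.

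Some leading genes of day 7 did not lead throughout. SPP1 was at 0.22, -1.74 and 3.51 at day 2, 5 and 9, and ANKRD1 at 0.12, -3.03 and 0.91. LTF was at 1.84, 3.50 and -0.06, SPINK1 at 0.91, 4.86 and 6.13 and ADAMTS5 at -0.13, 0.95 and 3.16. The collagen median was 0.55, -0.31 and 1.33 and the G2/M median -1.16, -1.62 and 0.09. Collagens were thus higher in CF by the median at day 2, 7 and 9 and lower at day 5, and G2/M genes were lower at day 2, 5 and 7.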

How the data were processed

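Reads had been aligned and UMIs counted by the authors with Cell Ranger 5.0.1 on ASM1176430v1.1, per the submitters' notes and the study's methods. The deposited matrices held whole UMI counts of 27912 genes. The authors dropped cells under 200 genes or over 20% mitochondrial reads, removed doublets, clustered WT and CF cells separately and deposited for each cell a class name, a cluster number, counts and the percent of mitochondrial counts. No doublet caller was run again.

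For each library, UMIs were added up over its retained cells and expressed as CPM over all genes. Differences are log2(CPM + 1) in CF minus log2(CPM + 1) in WT, among genes with at least 30 UMIs in both libraries together, which understates changes near 1 CPM. Called means at least 2-fold. Rows without a gene name held 0.973% of the CF and 0.820% of the WT UMIs, stayed in the totals and were not named. A cluster was set aside within classes where another class had more markers among its leading genes, or where UMIs were low with none of its own. Over the 4 days a marker of the own class led in only 7 of 22 kept CF clusters and 7 of 36 kept WT clusters. A kept name is therefore no support for that name. Classes needed 50 cells in each library. Named genes were CFTR and PDX1, the 12 highest and 12 lowest with a symbol and the 3 highest and 3 lowest LOC genes of at least 50 CPM in 1 library, the 10 largest moves each way in CPM, up to 4 list members each way with the most abundant member, 5 each way per class, and genes opposite in sign to the other days. Cells were thinned to 3000 UMIs for shares of cells. The cells compared, the 46 gene lists and the rules were chosen with earlier results of these data known. Analyses used Python 3.11.15, numpy 2.4.6 and scipy 1.17.1, with edgeR 4.0.16 and DESeq2 1.42.0 in R 4.3.3 for normalization factors only. The fold calls were tested on simulated data, which gives no measure of variation between donors or libraries. Gene positions came from a RefSeq table of the same assembly. Some items are not reported here.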

Additional observations from a re-analysis of the deposited data

Results flagged for a closer look

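Some genes differed in opposite directions between cells of different deposited names at day 7; those with the widest spread are given, and the difference between classes was not tested. MAL was at -1.48 (CF minus WT, log2 of CPM plus 1) in cells named centroacinar, 8.09 in centroacinar progenitor and 2.32 in ductal cells. TAGLN was at 3.72, 1.43 and -4.94 in the same order, and fibronectin (FN1) at 3.52, 0.60 and -4.17. CF cluster 11, of the centroacinar name, held 75.3% of the TAGLN and 74.8% of the FN1 UMIs of the CF library. The trefoil peptide TFF2 was at -2.04, 6.20 and -1.07. WFDC2 was at -5.91, -4.64 and 2.25. For MAL the WT cells named centroacinar held 795 UMIs. WT cluster 30, with 81 cells of that name, held 34.8% of the 2248 MAL UMIs of the WT library, at 359 CPM. The negative centroacinar value of MAL thus rests mainly on that cluster, and it was not computed without it. Of 10953 genes detected in all 3 classes, 255 were at least 2-fold higher in CF in 1 class and at least 2-fold lower in another.

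LOC123391894, an rRNA gene in the RefSeq table, had the opposite sign at day 7 from the other 3 days, untested: 205 CPM in CF and 89.7 CPM in WT at day 7, a difference of 1.18, against -1.98, -0.10 and -0.23 at day 2, 5 and 9. In all, 2 genes were at least 2-fold higher at day 7 with a lower level in CF at each other day, this one and 1 below 20 CPM, and 0 genes the reverse. Without CF clusters 13 and 21 its difference was 1.05, and with TMM factors 0.98.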

How the results depend on the processing

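No paired analysis was possible because each genotype had 1 library at day 7 and no result came from a test; leaving out a replicate was impossible for the same reason. The genes at least 2-fold higher and lower numbered 305 and 219 with a pseudocount of 5 CPM and 402 and 231 where 10 CPM was required in 1 library. CFTR moved to -0.67 with TMM factors, -0.25 as the mean CPM of each cell and 0.22 against SOX2-low WT cells. PDX1 was at 2.43 (TMM), 2.45 (DESeq2 size factors), 1.00 (pseudocount of 5), 2.77 (mean CPM of each cell), 2.63 (classes weighted alike) and 2.68 (without CF cluster 11). The centroacinar share was 45.4% in CF and 13.6% in WT counting only clusters that kept their name, and 71.8% in CF with unnamed clusters left out. The progenitor share by kept clusters was 12.1% in CF and 22.6% in WT. The ductal share of CF cells was 14.4% at 3000 UMIs or more, 5.48% by kept clusters and 8.66% with unnamed clusters left out, and that of WT cells 48.2% by kept clusters and 56.0% with unnamed ones left out.

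Requiring 10 CPM left 5 secreted defence genes lower, 7 collagens and 7 matricellular genes higher and 7 G2/M genes lower. A pseudocount of 5 left 7 matricellular genes higher and 5 G2/M genes lower. Laminins and integrins higher in CF were 4 with TMM, 4 with DESeq2 factors and 5 with classes weighted alike, and G2/M genes lower were 10 by the mean CPM of each cell and 5 with classes weighted alike. With TMM factors the list members BMPR2, CAPS, ITGB1, LEF1, MFNG, MUC5AC, NOTCH4, NR5A2, P4HA1, PMEPA1, PSCA, SMAD7, TGFBR1 and VRK2 were under 2-fold higher, from 0.80 (PSCA) to 0.95 (BMPR2). Against SOX2-low WT cells 13 laminins and integrins were higher, 6 NF-kB genes and 1 secreted defence gene lower, the secreted defence median was 0.49, and GLRX (0.49), MUC13 (1.56), PANK4 (0.021), S100A4 (0.51) and WFDC2 (1.31) changed sign. S phase genes lower in CF were 1 with a pseudocount of 5, where 10 CPM was required and by the mean CPM of each cell, and 2 with classes weighted alike, but 15 against SOX2-low WT cells, where TGF-beta and WNT genes higher were 7 and 8. With every cluster kept, 929 genes were higher in ductal cells. Leaving out CF cluster 11, CF clusters 13 and 21, WT cluster 27, every cluster named proliferating or the 1 THY1-positive CF cell was chosen after seeing the data: without CF cluster 11, 6 collagens, 4 laminins and integrins and 2 contractile genes were higher, without WT cluster 27, 3 G2/M genes were lower, and without the clusters named proliferating in both libraries, 9. Donors, cells and libraries give no error here, and the causes were not tested.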

Other observations

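The leading CF transcripts fell into separate clusters. In CF clusters 17 and 18, named centroacinar progenitor, ECRG4 reached 5022 and 6839 CPM, LTF 630 and 288 CPM and SPINK1 94.6 and 149 CPM. CF cluster 19, with 88 cells named ductal, had ECRG4 at 3895, LTF at 407 and SPINK1 at 301 CPM, and held 50.5% of the SPINK1 UMIs of the CF library. Of the CF SPINK1 UMIs 677 were in 1 cell of cluster 19, the only CF cluster with that many. The level of 301 CPM and the share of 50.5% thus rest largely on 1 cell and were not computed without it. After thinning 11.4% of the cells of cluster 19 held a SPINK1 UMI. The surface gene LY6D was at 3.32 and 6.92 CPM in CF clusters 17 and 18 and at 1555 and 1455 CPM in CF clusters 0 and 14, named centroacinar, where LTF was at 2.24 and 4.24 CPM. The basal keratin KRT5 was at 13 CPM in CF cluster 18 and 1272 CPM in CF cluster 5.

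WT clusters 17 and 30, SOX2-low and of 161 and 81 cells, had the most ECRG4 of the 21 WT clusters of at least 50 cells. WT cluster 17 held 53.7% of the LTF and 75.0% of the TFF1 UMIs of the WT library, at 181 and 186 CPM, and ECRG4 was at 509 and 598 CPM in WT clusters 17 and 30. They held no PDX1 in cluster 17 and the 1 WT PDX1 UMI in cluster 30.

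Among the 712 genes higher in CF the median gene had 1.52% of its CF UMIs in its top cell, and 10 genes had over 50% in 1 cell. Among the 470 lower genes the median gene had 0.913% of its WT UMIs in the top WT cell, and 0 had over 50%. TFF1 had 22.7% of its CF UMIs in 1 cell.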
